A study of Mus musculus with 12 samples.

Results

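The acute phase and calgranulin genes described here are Saa3, Lcn2, Hp, S100a8, S100a9, Slpi, and Ptx3. They were chosen by gene symbol, after the Ensembl identifiers of the counted genes had been matched to mouse names. The choice was made with earlier results of these data known. The members are 7 of the 43626 genes in the count data. The libraries were made from bone marrow–derived macrophages (BMDMs), which are macrophages grown in culture from mouse marrow. There were 4 groups of 3 libraries. The PBS group was unstimulated, the 3′SL group received 3′-sialyllactose at 100 μg/mL, the LPS group received lipopolysaccharide at 10 ng/mL, and the LPS + 3′SL group received both agents at these doses, each for 6 hours. The labels call 3′SL by the abbreviation HMO, for human milk oligosaccharide. They give no strain, age, donor, or batch for the cells, and their treatment text is about injections of mice, so the doses and hours were taken from the paper's description of the cultures. Nothing in the labels states that the 3 libraries of a group came from separate animals or cultures, and p-values then measure only the spread between these libraries. The study compared these groups to learn how the milk sugar alters macrophage expression with and without LPS.

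Acute phase proteins are secreted in quantity when tissues sense infection or injury. The liver makes most of them in response to IL-6 and IL-1, while macrophages and neutrophils make a smaller set at the site of inflammation. Saa3 is the serum amyloid A made mainly outside the liver in mice, Hp encodes haptoglobin, which captures free hemoglobin, and Ptx3 encodes a long pentraxin that binds microbes and complement. Lcn2 encodes lipocalin 2, which withholds iron from bacteria by binding their siderophores, and Slpi encodes an inhibitor of neutrophil elastase and related proteases. S100a8 and S100a9 encode the subunits of calprotectin, a calcium- and zinc-binding heterodimer that fills the cytoplasm of neutrophils and is also made by monocytes. Lcn2 and Hp are likewise known from granules of maturing neutrophils, so that marrow cultures may carry these transcripts from cells other than macrophages.

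Reads counted on genes numbered 20411741 to 26851890 per library. Levels are given as CPM, which are counts relative to library sizes scaled by edgeR's TMM factors. These factors were between 1.08 and 1.30 in the PBS and 3′SL libraries and between 0.700 and 0.939 in the LPS and LPS + 3′SL libraries. Clustering the residuals of all other genes, with the number of sets fixed at 3, gave sets of 4 libraries. Each set held 1 library of every group. Residuals of libraries correlated at a mean of 0.60 in the same set and -0.35 across sets. These residuals also formed the sets, so the correlations describe the sets and do not test them. Removing group means also lowers correlations between libraries of the same group. The replicates of every group are numbered so that replicate 1 belongs to set 1, replicate 2 to set 2, and replicate 3 to set 3, and values are given in that order. All 10 macrophage markers checked had reads in every library. All 14 neutrophil markers had reads in every library too, with a summed level of 115 to 366 CPM with PBS, 120 to 220 with 3′SL, 159 to 614 in the LPS group, and 151 to 596 in the LPS + 3′SL group. Relative to total counts without these factors, the neutrophil sum was 149, 240, and 443 CPM with PBS. With LPS it was 139, 239, and 429 CPM on that scale. For 10 stromal markers, genes of fibroblast-like cells, the sum was 684 to 832 CPM in set 1, 29.5 to 68.9 in set 2, and 77.9 to 148 in set 3, and 8 to 10 of them had reads. Calls required an adjusted p under 0.05 (edgeR's quasi-likelihood test, Benjamini-Hochberg adjustment) together with a change of at least 1.5-fold. The 14308 genes with enough reads were tested, all 7 members among them.

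**Figure D1:**
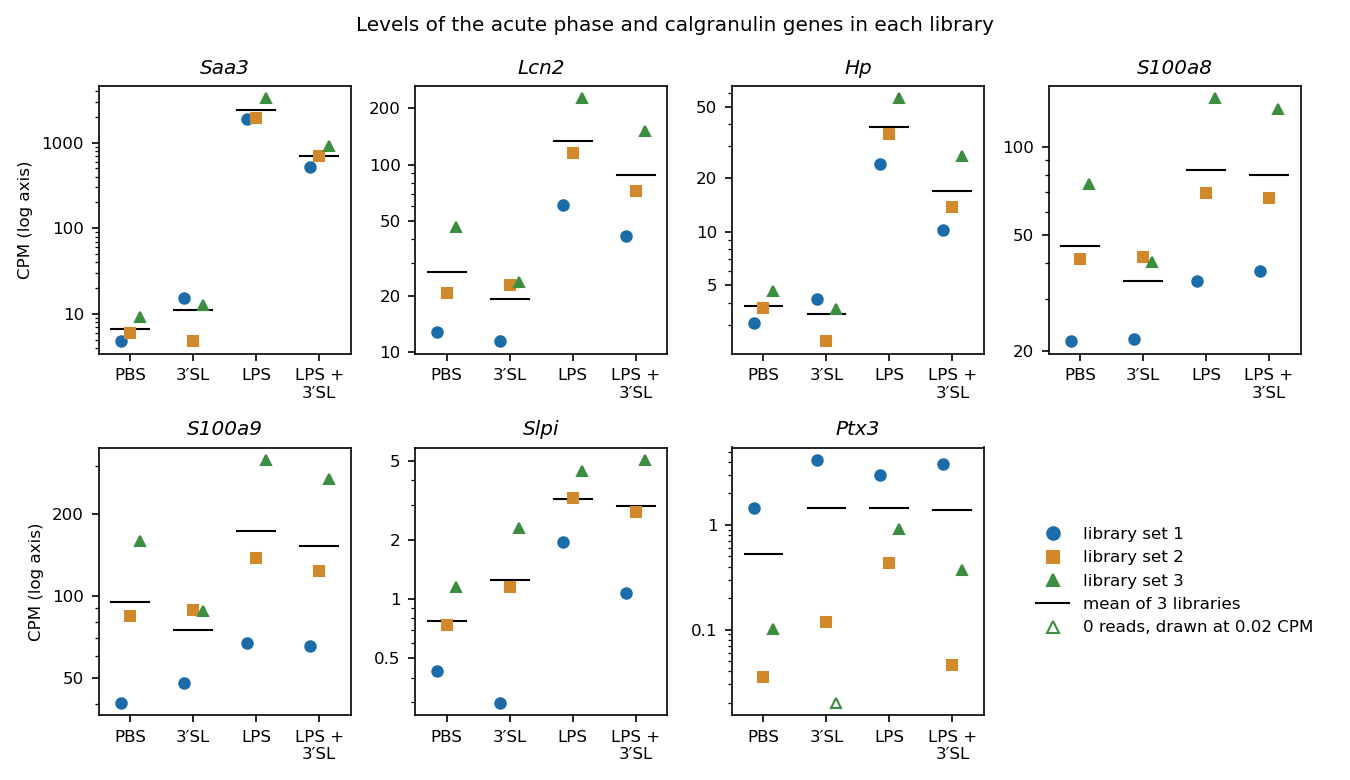
Level of each gene in CPM (log axis) in the 12 libraries, with a marker shape and color per library set and a line at the mean of 3 libraries. The LPS libraries of Saa3 sit between 1895 and 3306 CPM, against 4.82 to 9.31 CPM with PBS, whereas the groups of S100a8 and S100a9 overlap and set 1 is the lowest library in each.

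Saa3 was the member with the largest response to LPS. Saa3 lies on chromosome 7 (ENSMUSG00000040026.7, GRCm38, chr7:46711998-46715700, minus strand). Its level was 4.82, 5.93, and 9.31 CPM in the PBS libraries, 15.5, 4.77, and 12.8 CPM with 3′SL, 1895, 1956, and 3306 CPM with LPS, and 519, 691, and 912 CPM with LPS + 3′SL. Every library with LPS was above every library without it, and the libraries with LPS + 3′SL were all below those with LPS. With LPS against PBS the log2 fold change was 8.48 ± 0.56 (SE), a 357-fold rise (edgeR, adjusted p = 1.53e-06), and the changes within sets 1, 2, and 3 were 8.62, 8.37, and 8.47. This was the 26th largest increase among the 14308 genes tested. Per kilobase of exon, the mean level of Saa3 was 2.57 CPM per kb with PBS and 915 CPM per kb with LPS, which moved it from rank 8241 to rank 58 of the 14241 genes with an exon length. Of the 50-nucleotide words in the Saa3 transcripts, 3.57% also occur in other genes, of which Malat1 shares the most. A small share of the Saa3 reads may therefore have been uncountable or shared.

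Hp, the haptoglobin gene on chromosome 8 (ENSMUSG00000031722.9, chr8:109575128-109579172, minus strand), was next in size. The Hp level was 3.07, 3.75, and 4.65 CPM with PBS, 4.20, 2.43, and 3.70 CPM with 3′SL, 23.9, 35.2, and 55.9 CPM with LPS, and 10.2, 13.7, and 26.6 CPM with LPS + 3′SL. The groups with and without LPS did not overlap, and of the LPS + 3′SL libraries, that of set 3 alone reached into the range of the LPS libraries. Hp rose by 3.32 ± 0.42 on the log2 scale with LPS, or 10.0-fold (edgeR, adjusted p = 9.14e-05). Within sets the changes were 2.96, 3.23, and 3.59. The mean level per kilobase of exon was 2.38 CPM per kb with PBS, near the 2.57 of Saa3. With LPS it was 23.9 CPM per kb, far below the 915 of Saa3.

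Ptx3, on chromosome 3 (ENSMUSG00000027832.5, chr3:66219910-66225805, plus strand), was counted in few reads and mostly in 1 library of each group. It had 51, 1, and 3 reads with PBS, 113, 3, and 0 with 3′SL, 62, 9, and 15 with LPS, and 78, 1, and 7 with LPS + 3′SL. The set 1 library was the highest of its group in all 4 groups, at 1.46 to 4.20 CPM, and no pair of groups was separate. With 0 of 23352909 counted reads in the 3′SL library of set 3, up to 3 reads remain possible at this depth, which covers counting error only. The log2 fold change with LPS was 1.42 ± 1.78 (95% interval, -2.49 to 5.34), and it did not pass (edgeR, adjusted p = 0.555). Set 1 is also the set with the highest stromal markers, and the part of such cells in the Ptx3 reads was not tested.

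Lcn2 and Slpi, which act against microbes and proteases at epithelia and in neutrophils, were both higher with LPS. Lcn2 (ENSMUSG00000026822.10, chr2:32384633-32388252, minus strand) had 12.8, 20.8, and 46.3 CPM with PBS, 11.4, 23.0, and 23.6 CPM with 3′SL, 61.1, 115, and 226 CPM with LPS, and 41.8, 72.2, and 152 CPM with LPS + 3′SL. The LPS libraries were all above the PBS libraries, and the LPS + 3′SL libraries were all above the 3′SL libraries but overlapped the range of the LPS group. The log2 fold change with LPS was 2.33 ± 0.63, or 5.04-fold (edgeR, adjusted p = 0.0111), with 2.25, 2.47, and 2.29 within sets. Without LPS replicate 3 it was 1.73 and no longer passed (edgeR, adjusted p = 0.0511).

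Slpi (ENSMUSG00000017002.10, chr2:164354070-164389095, minus strand) was scarce in every group. It had 0.43, 0.74, and 1.15 CPM with PBS, 0.30, 1.15, and 2.31 CPM with 3′SL, 1.95, 3.24, and 4.48 CPM with LPS, and 1.07, 2.76, and 5.09 CPM with LPS + 3′SL. These levels rest on 15 to 34 reads per library with PBS and 40 to 73 with LPS, and the 2 groups did not overlap. The log2 fold change with LPS was 2.06 ± 0.73, or 4.17-fold (edgeR, adjusted p = 0.0388). The call was lost when PBS replicate 1 or 2, 3′SL replicate 2, LPS replicate 2 or 3, or LPS + 3′SL replicate 2 was left out, with log2 fold changes of 1.75 to 2.06. It was also lost with libraries scaled by total counts (1.38). The exons of Slpi overlap those of Mir7678 by 1 base on the same strand.

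The calprotectin genes S100a8 (ENSMUSG00000056054.8, chr3:90668978-90670035, plus strand) and S100a9 (ENSMUSG00000056071.8, chr3:90692632-90695721, minus strand) lie near each other on chromosome 3. Both were already abundant without LPS. S100a8 had 21.6, 41.4, and 74.3 CPM with PBS, 22.0, 42.0, and 40.4 CPM with 3′SL, 34.6, 69.3, and 147 CPM with LPS, and 37.6, 66.7, and 135 CPM with LPS + 3′SL. S100a9 had 40.4, 84.1, and 159 CPM with PBS, 47.9, 88.3, and 87.8 CPM with 3′SL, 66.8, 137, and 316 CPM with LPS, and 65.6, 123, and 268 CPM with LPS + 3′SL. For both genes all 4 groups overlapped, and set 1 was the lowest library in every group. Per kilobase of exon, S100a9 averaged 181 CPM per kb with PBS and ranked 148th of 14241 genes, ahead of S100a8 at 65.9 CPM per kb and rank 498. In each library, S100a9 was 2.32 to 2.89 times as abundant as S100a8 on this scale.

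The promoter sequences of Saa3 and of the calprotectin genes are shown because these genes had the largest and the smallest change with LPS among the members well covered by reads. They are the 250 bases ahead of the RefSeq start (GRCm38.p6), written 5′ to 3′ on the strand of the gene, and capitals mark matches to the letters TATANA on either strand.
Saa3: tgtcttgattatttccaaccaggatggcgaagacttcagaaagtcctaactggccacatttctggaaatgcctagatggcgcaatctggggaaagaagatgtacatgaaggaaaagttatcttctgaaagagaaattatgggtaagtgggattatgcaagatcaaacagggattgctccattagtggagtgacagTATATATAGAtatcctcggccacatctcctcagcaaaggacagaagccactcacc
S100a8: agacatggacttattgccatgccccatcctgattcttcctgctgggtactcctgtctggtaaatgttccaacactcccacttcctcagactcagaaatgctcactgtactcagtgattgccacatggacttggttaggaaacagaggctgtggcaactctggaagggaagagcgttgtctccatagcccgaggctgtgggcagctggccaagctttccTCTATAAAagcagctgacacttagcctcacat
S100a9: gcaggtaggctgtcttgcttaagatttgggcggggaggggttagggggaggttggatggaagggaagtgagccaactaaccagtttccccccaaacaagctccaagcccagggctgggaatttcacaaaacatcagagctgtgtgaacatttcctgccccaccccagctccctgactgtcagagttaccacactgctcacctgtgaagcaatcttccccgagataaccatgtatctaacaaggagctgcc
The Saa3 window is chr7:46715677-46715926 (minus strand), that of S100a8 is chr3:90668821-90669070 (plus strand), and that of S100a9 is chr3:90695722-90695971 (minus strand). Saa3 held 3 overlapping matches, the first of which begins 55 bases ahead of the start, and S100a8 held 2, which begin 32 and 30 bases ahead. TATANA was searched after the sequences had been seen, and 22.6% of 32851 RefSeq promoters of the same length hold it. RefSeq windows were found for 6 of the 7 members. None of these 6 held the letters TGANTCA (AP-1, 6.75% of all promoters), TTCNNNGAA (STAT, 7.02%), or the kappaB consensus (7.25%), on either strand. The letters TTGCNNCAA (1.74%) were absent too. They are spaced more widely than the usual C/EBP site, so C/EBP sites were not searched. A match or its absence in this window describes the letters alone.

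Neither calprotectin gene passed the test with LPS. The log2 fold change of S100a8 was 0.87 ± 0.61 (95% interval, -0.47 to 2.21; edgeR, adjusted p = 0.273), and that of S100a9 was 0.88 ± 0.66 (95% interval, -0.57 to 2.32; edgeR, adjusted p = 0.306). Within sets 1, 2, and 3, the S100a8 changes were 0.68, 0.74, and 0.98, and the S100a9 changes were 0.72, 0.71, and 0.99. When the library sets were fitted as a block, the S100a8 change was 0.82 and that of S100a9 was 0.82, and both passed (edgeR with block, adjusted p = 0.00314 and 0.00519). The value depended on the scaling. With total counts the median over all genes tested moved from -0.06 to -0.71, and S100a8 and S100a9 then stood at 0.16 each and passed neither with nor without the block. In CPM of the unscaled totals, S100a8 was at 28.0, 52.0, and 90.0 with PBS and at 30.3, 57.1, and 103 with LPS, so the LPS library was 1.08 to 1.14 times the PBS library of its set.

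The summed level of 14 neutrophil markers moved with both genes across libraries, and 70.4% to 80.4% of the sum of the group means came from Ngp and Ltf. The single markers went both ways with LPS, with 9 positive, 5 negative, and a median log2 fold change of 0.05. Retnlg, which encodes a resistin-like protein and was named after its values were seen, had a mean of 4.03 CPM with PBS and 1.56 CPM with LPS. The ratio of S100a8 to the summed markers was 0.187 to 0.217 with PBS, 0.183 to 0.202 with 3′SL, 0.218 to 0.239 in the LPS group, and 0.227 to 0.250 in the LPS + 3′SL group. For S100a9 this ratio was 0.351 to 0.440 with PBS and 0.421 to 0.514 with LPS. Within sets, the ratio with LPS was 1.10 to 1.18 times that with PBS for S100a8 and 1.07 to 1.20 times for S100a9, higher in 3 of 3 sets for each. Across the 12 libraries the genes most like S100a8 in log2 CPM, among 9536 genes with a mean of at least 5 CPM, were Ltf (Pearson r = 0.995), which encodes the granule protein lactoferrin, and Chil3 (0.987), which encodes a chitinase-like protein. The genes most like S100a9 were Ltf (0.997) and Ngp (0.988), which are both on the list of neutrophil markers. These correlations describe 12 libraries that share sets and treatments. Their part in the calprotectin levels was not tested, and in bulk RNA fewer cells of a type and less RNA per cell cannot be told apart. The ratio of Lcn2 to the same markers was 0.109 to 0.126 with PBS, 0.0948 to 0.110 with 3′SL, 0.369 to 0.396 in the LPS group, and 0.255 to 0.277 in the LPS + 3′SL group, and the ratio of Saa3 was 0.0254 to 0.0419 with PBS and 5.39 to 11.9 with LPS. Within sets, the ratio with LPS was 2.92 to 3.64 times that with PBS for Lcn2 and 212 to 285 times for Saa3, and the 3 Lcn2 ratios with LPS + 3′SL lay between those of the PBS and LPS groups.

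**Figure D2:**
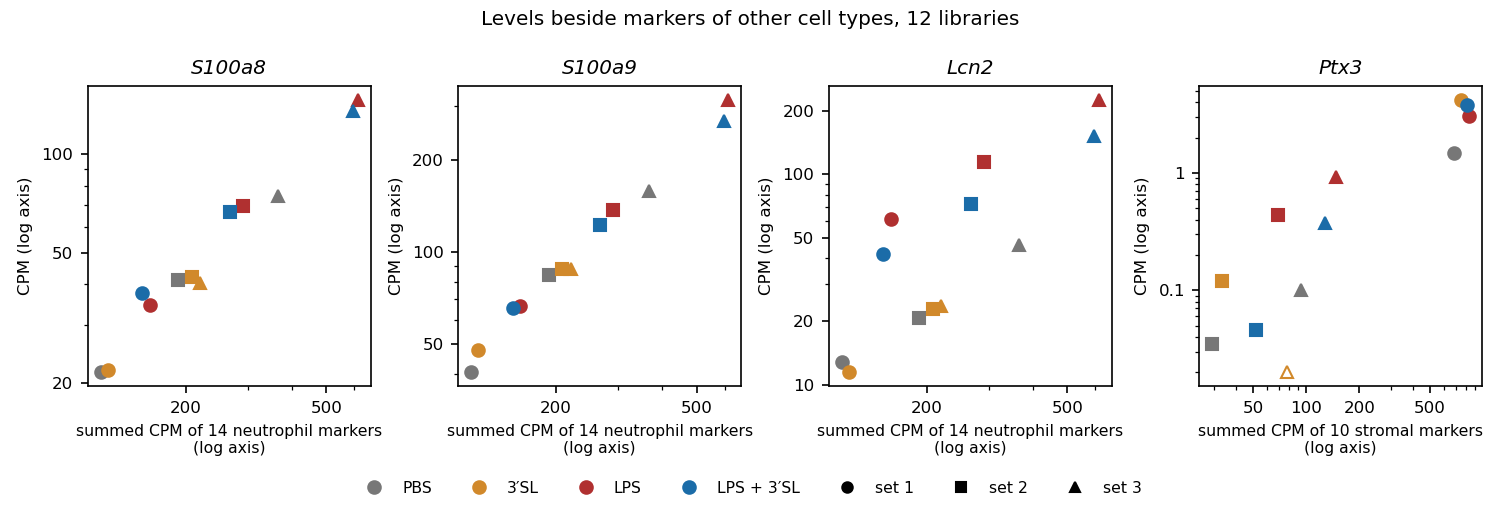
Level of S100a8, S100a9, and Lcn2 against the summed CPM of 14 neutrophil markers, and of Ptx3 against that of 10 stromal markers, in 12 libraries on log axes, with color for treatment and shape for library set; the open symbol marks 0 reads, drawn at 0.02 CPM. S100a8 and S100a9 follow the marker sum in all libraries, Lcn2 forms a higher band with LPS (61.1 to 226 CPM) than with PBS (12.8 to 46.3 CPM), and Ptx3 is highest in set 1.

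Counted together, 4 of the 7 members rose with LPS (Saa3, Hp, Lcn2, and Slpi) and none fell, against 18.3% of all genes tested called higher in this comparison. The 7 were chosen with earlier results of these data known, which limits what this count can show. The libraries of the same 4 members did not overlap, which was so for 27.3% of all genes in this direction. The median log2 fold change of the members was 2.06, against -0.06 for all genes. With the library sets as a block, all 7 were called (20.5% of all genes), including Ptx3 at 2.17 (edgeR with block, adjusted p = 0.0336). In sets 2 and 3 Ptx3 had only 1 and 3 reads with PBS, against 9 and 15 with LPS. With the block and total counts, S100a8 and S100a9 did not pass. That fit without total counts also called 4 of 14 neutrophil and 4 of 8 stromal markers higher, and 2 neutrophil markers lower. Other pairs of genes most alike over the 12 libraries were Il1a (r = 0.995) and Serpina3g (0.995) for Saa3, Pfkfb3 (0.986) and Mapk6 (0.985) for Hp, Pid1 (0.978) and Otub1 (0.977) for Lcn2, Eps15l1 (0.977) and Lst1 (0.952) for Slpi, and Grem1 (0.952) and Enah (0.934) for Ptx3. The mean Il1a level, for example, was 2.00 CPM with PBS, 3.76 with 3′SL, 1373 with LPS, and 476 with both agents, the same order of groups as for Saa3.

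Without LPS, none of the 7 members passed the test with 3′SL against PBS, and edgeR called none of the 14308 genes (0%). No member had an unadjusted p under 0.05, against 10.1% of all genes. DESeq2 and the fit with library sets as a block called 0 members (0.615% and 2.84% of all genes), and the libraries of the 2 groups overlapped for every member. Saa3 had the smallest unadjusted p, with a log2 fold change of 0.72 (95% interval, -0.21 to 1.66). Its level was higher with 3′SL in sets 1 and 3 and lower in set 2, with changes of 1.69, 0.46, and -0.31. The changes of Lcn2, S100a8, and S100a9 were -0.46, -0.39, and -0.34, and set 3 carried them. Within set 3 they were -0.97, -0.88, and -0.85, whereas in sets 1 and 2 they lay between -0.16 and 0.24. Without PBS replicate 3 they were 0.21, 0.15, and 0.26. The summed neutrophil markers of set 3 were likewise 366 CPM with PBS and 220 CPM with 3′SL, and their part was not tested.

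With LPS present, Saa3 and Hp were lower when 3′SL was added, Lcn2 stood a little lower in every set, and the estimates of the calprotectin genes were near 0. This comparison and that of LPS with PBS share the LPS libraries. No member passed the test, and none of the 14308 genes did (0%; smallest adjusted p = 0.0835 by edgeR). The Saa3 change was -1.75 ± 0.42 (95% interval, -2.67 to -0.84), a level 3.37-fold lower with LPS + 3′SL, at an unadjusted p of 0.00152 (edgeR, adjusted p = 0.213). It was -1.87, -1.5, and -1.86 within sets. The libraries of the 2 groups did not overlap, which held in this direction for 6.5% of all genes. An exact permutation test gave p = 0.1, the smallest that 3 libraries against 3 allow. Saa3 passed by DESeq2 (-1.76, adjusted p = 0.00537) and with the library sets as a block (-1.73; edgeR with block, adjusted p = 0.00949), and its change was the 37th lowest among all genes and the 15th lowest among the 2613 genes raised by LPS.

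The Hp change was -1.19 ± 0.39 (95% interval, -2.04 to -0.33), or 2.28-fold lower, at an unadjusted p of 0.0110 (edgeR, adjusted p = 0.444). Within sets it was -1.23, -1.36, and -1.07, so each set had less Hp with 3′SL even though the set 3 library overlapped the LPS group. Hp passed with the block (edgeR with block, adjusted p = 0.0227) and did not pass by DESeq2 (adjusted p = 0.158). Saa3 and Hp were the 2 members with an unadjusted p under 0.05, against 6.95% of all genes, and the 2 called lower with the block, against 0.762% of all genes. DESeq2 called 1 member, Saa3, against 0.461%.

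The Lcn2 change was -0.60 ± 0.61 (95% interval, -1.93 to 0.74), with -0.55, -0.67, and -0.58 within sets, and it passed neither the test nor the fit with the block (edgeR with block, adjusted p = 0.102). S100a8 and S100a9 differed by -0.07 (95% interval, -1.39 to 1.26) and -0.19 (95% interval, -1.62 to 1.25), and the sign of S100a8 turned with total counts (0.019). Slpi stood at -0.12 and Ptx3 at -0.06, with changes of opposite sign among sets. All 7 changes were negative, with a median of -0.19 against -0.01 for all genes. The sign of Ptx3 turned with total counts too (0.073). Among the 2613 genes raised by LPS, the Slpi change was only the 1649th lowest. The share of negative changes over all genes was not counted, here or for the lists below.

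**Figure D3:**
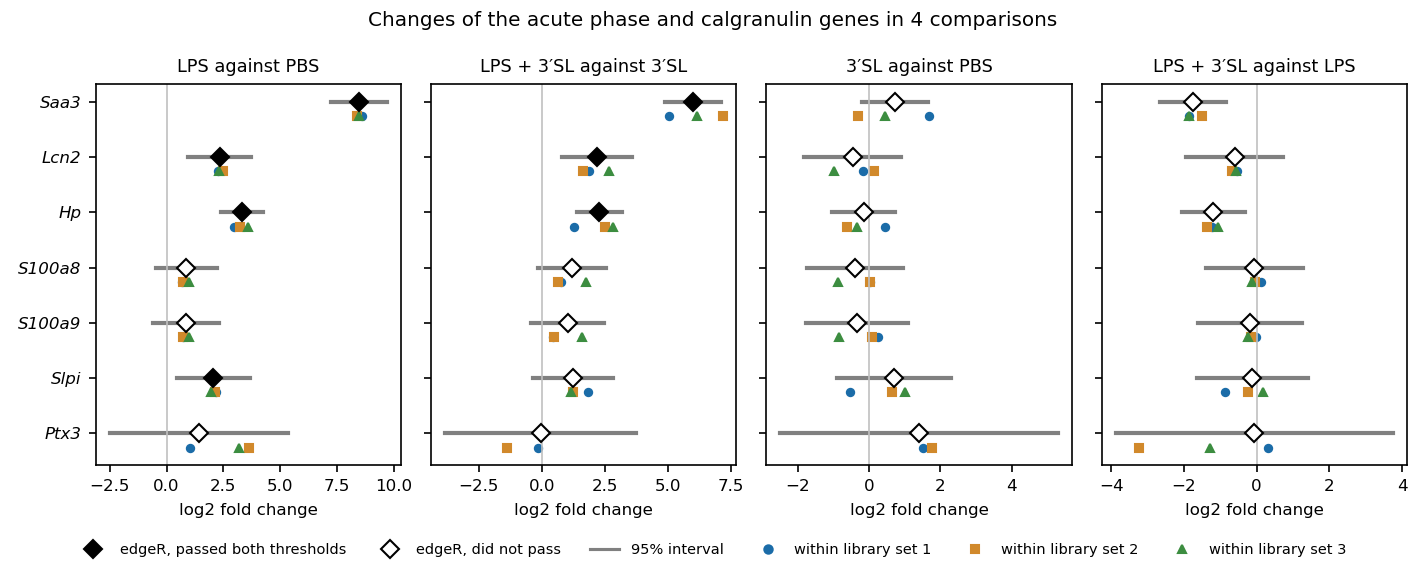
Log2 fold change of each gene in 4 comparisons, with edgeR's estimate (diamond, filled where both thresholds were passed), its 95% interval, and the change within each library set (small symbols; no symbol where a library had 0 reads). Saa3, Lcn2, and Hp passed in both comparisons with LPS against its absence, and no gene passed for 3′SL, where the Saa3 and Hp intervals with LPS, -2.67 to -0.84 and -2.04 to -0.33, lay below 0. The horizontal scales differ between panels.

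Seen as the part of the LPS rise over PBS that was left when 3′SL was present, Saa3, Hp, and Lcn2 gave similar values in the 3 sets. In CPM, Saa3 kept 27.2%, 35.1%, and 27.4% of its rise in sets 1, 2, and 3 (mean 29.9% ± 4.53, SD, n = 3), and Hp kept 34.1%, 31.7%, and 42.8% (36.2% ± 5.84). Lcn2 kept 60.0%, 54.6%, and 58.5% (57.7% ± 2.77). The 3 Lcn2 values lay above all those of Saa3 and Hp, which overlapped each other. For S100a9 the values were 95.5%, 72.8%, and 69.8%, and for S100a8 they were 123%, 90.5%, and 84.0%, above those of Lcn2 in each set. The rise of both calprotectin genes did not pass the test, and with total counts, a scaling tried here after the data were seen, it was small and the shares scattered from 61.5% to 319% for S100a8 and from 6.33% to 152% for S100a9. Their place above Lcn2 was lost on that scale in sets 2 and 3 for S100a9, while Saa3 (28.2% to 37.9%) and Hp (30.9% to 40.6%) stayed below Lcn2 (52.5% to 61.4%). Slpi and Ptx3, with few reads, ranged from 41.8% to 118% and from 2.72% to 148% and had no place in an order. These shares use the same PBS and LPS libraries for their base, are taken within sets, and were not tested.

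**Figure D4:**
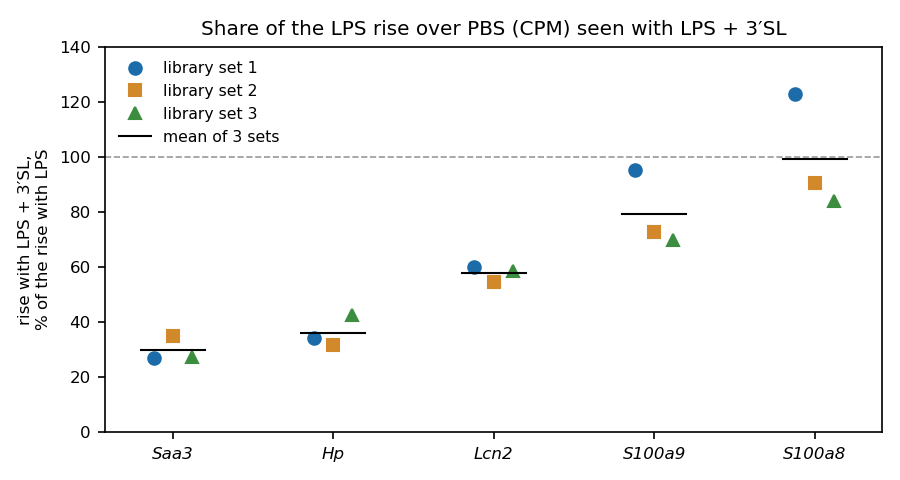
Rise over PBS with LPS + 3′SL as a percentage of the rise with LPS, by gene and library set, with a line at the mean of 3 sets and a dashed line at 100%. Saa3 (27.2% to 35.1%) and Hp (31.7% to 42.8%) sit below Lcn2 (54.6% to 60.0%), and S100a9 and S100a8, whose rise did not pass the test and whose shares change with total counts, sit highest. Slpi and Ptx3 are not drawn.

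The response to LPS was also compared in the presence of 3′SL. Against 3′SL alone, 3 of the 7 were called higher with LPS + 3′SL, which are Saa3, Hp, and Lcn2, against 14.3% of all genes. Saa3 rose by 6.00 ± 0.51 on the log2 scale (64.0-fold; edgeR, adjusted p = 1.03e-05), Hp rose by 2.29 ± 0.41 (4.87-fold; edgeR, adjusted p = 0.00133), and Lcn2 rose by 2.20 ± 0.63 (4.58-fold; edgeR, adjusted p = 0.0196). The Lcn2 call was lost without 3′SL replicate 1 (1.93) or LPS + 3′SL replicate 3 (1.56). S100a8 (1.20), S100a9 (1.03), Slpi (1.24), and Ptx3 (-0.04) did not pass, and the libraries of the 3 called members alone did not overlap (22.4% of all genes). With the block, 6 members were called, all but Ptx3 (16.4% of all genes). With total counts, the median over all genes tested in this comparison moved from -0.07 to -0.54.

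The difference between the 2 effects of 3′SL, with and without LPS, was tested as an interaction. None of the 7 members was called, nor any gene (0%). The Saa3 interaction was -2.48 ± 0.59 at an unadjusted p of 0.00158 (edgeR, adjusted p = 0.564), and it was -3.56, -1.19, and -2.32 within sets. It passed by DESeq2 (adjusted p = 0.0167; 1 member, against 0.252% of all genes called lower) and with the block (edgeR with block, adjusted p = 0.0177; 1 member, against 1.29% of all genes). The 3′SL and PBS libraries had 120 to 417 Saa3 reads, and their spread among sets enters this value. The Hp interaction was -1.04 ± 0.56 (edgeR, adjusted p = 0.840), and its 95% interval and those of the other 5 members included 0.

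Most other acute phase genes were not measurable in these cells. Of 27 other genes of acute phase proteins, 20 had too few reads to test, with at most 14 reads in any library. Among these, the liver genes Saa1, Saa2, and Crp had at most 10, 7, and 1 reads, and Apcs and Fgg had 0. Of the 7 tested, 5 rose with LPS, against 18.3% of all genes, and none was lower. Serpina3f (9.79) and Serpina3g (8.34), which encode serine protease inhibitors of a family with near-identical copies, Cfb (6.99), which encodes complement factor B, and Cp (6.24), which encodes ceruloplasmin, rose most on the log2 scale. Mean Cp levels were 7.42 ± 2.46 CPM with PBS, 559 ± 254 with LPS, and 239 ± 103 with LPS + 3′SL. Against LPS alone, LPS + 3′SL gave negative values in 6 of the 7 with 0 called. An unadjusted p under 0.05 was seen for 2 of the 7, against 6.95% of all genes. The values were -1.23 for Cp, -0.78 for Serpina3f, -0.85 for Serpina3g, and -1.08 for Cfb. With the block Cp, Serpina3f, and Serpina3g were called, against 0.762% of all genes called lower. Lbp, the LPS-binding protein gene, and Hpx, the hemopexin gene, did not pass with LPS (0.48 and 1.48).

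Of 13 other S100 genes, 7 were tested and 2 rose with LPS, S100a10 (0.78) and S100a11 (0.85), against 18.3% of all genes. Both were under the 1.5-fold threshold with total counts (0.11 and 0.20), relative to the median over all genes of -0.71 on that scale. When 3′SL was added to LPS they stood at -0.09 and -0.12. S100a10 had 149 ± 15.3 CPM with PBS and 255 ± 23.6 CPM with LPS. Their libraries spread less between sets than those of S100a8 and S100a9, whose SDs with LPS were 57.4 and 128 CPM around means of 83.5 and 173 CPM.

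A list of cytokines, cytokine receptors, transcription factors, and inhibitors in the pathways upstream of acute phase genes changed in large part with LPS. Of its 20 genes, 16 rose and 2 fell, against 38.5% of all genes called in either direction. Il1b (9.80), Il1a (9.43), Il6 (9.04), and Socs3 (8.42), a feedback inhibitor of IL-6 signaling, rose most on the log2 scale. When 3′SL was added to LPS, 15 of the 20 were negative and 0 were called. An unadjusted p under 0.05 was seen for 4 of them, against 6.95% of all genes. The median change was -0.38, against -0.01 for all genes, and the LPS libraries are shared with the comparison above. Il6 was at -2.26, Il1a at -1.53, Il1b at -1.12, and Socs3 at -0.42. The mean Il6 level was 86.8 ± 19.1 CPM with LPS and 18.2 ± 10.5 CPM with LPS + 3′SL, and it passed by DESeq2 and with the block. Nfkbiz, named after its values were seen, encodes IκBζ, a nuclear partner of NF-κB. It rose by 5.01 with LPS and was at -0.84 with LPS + 3′SL against LPS, called with the block alone.

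Of 21 receptors and binding partners of the members and of LPS, 20 were tested, and 6 rose and 3 fell with LPS, a share near the 38.5% of all genes called in either direction. The formyl peptide receptors Fpr2 (6.56), which also binds serum amyloid A, and Fpr1 (5.18), Tlr2 (4.08), a receptor of bacterial lipoproteins, and Cd14 (2.68), the LPS coreceptor, rose most. Their changes with LPS + 3′SL against LPS were -0.57, -0.75, -0.54, and 0.13, and 0 of the 20 were called, with 2 at an unadjusted p under 0.05, against 6.95% of all genes. Cd163, the scavenger receptor for haptoglobin bound to hemoglobin, fell by 0.91 with LPS. Of 20 other antiprotease and antimicrobial genes, 11 were tested and 3 rose with LPS, against 18.3% of all genes. They were Cst7 (5.37), which encodes cystatin F, and Wfdc18 (3.06) and Wfdc17 (2.23), which share the whey acidic protein domain of Slpi. For 3′SL added to LPS, 10 of the 11 were negative and 0 were called. An unadjusted p under 0.05 was seen for 2 of them, against 6.95% of all genes. The values were -0.68 for Cst7, -1.17 for Wfdc18, and -0.79 for Wfdc17, which passed by DESeq2. No gene of these lists was called for 3′SL against PBS by edgeR without the block. Of the 14 neutrophil markers 0 were called with LPS against PBS, and of the 8 stromal markers tested 0 were. With the block, 4 neutrophil and 4 stromal markers were called higher, and 2 neutrophil markers lower. The share of all genes called higher in that fit was 20.5%. Of the 10 macrophage markers, 6 rose without the block, against 18.3% of all genes. Scaled by total counts, the sum of these 10 was 23341, 25063, and 25770 CPM with PBS in sets 1, 2, and 3. With LPS it was 23338, 23252, and 21332 CPM.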

How the data were processed

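RNA-Seq libraries of BMDMs were analysed, 3 in each of the 4 groups, assigned by the labels of the libraries. The values the authors deposited are whole-number counts of reads on each gene, 1 column per library, and are not normalized. Per the labels, libraries were stranded and polyA enriched, and the submitters' processing notes name FastQC, Trimmomatic, STAR, HTSeq, and DESeq2. The genome build, the annotation, and the strand setting of the counting are not given in the sources used here. Between 33.2% and 37.1% of reads per library were in rows that name no gene (not aligned, not unique, ambiguous, no feature), and these stayed out of library sizes and tests. Identifiers were matched without versions to GENCODE M21 (GRCm38), which named 42548 of 43626 gene rows and gave positions and exon lengths. No library was a repeat of another of its group, since the chi-square per gene between libraries of a group was at least 14.9. Libraries of different groups were not compared in this way.

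The main test was that of edgeR 4.0.16 in R 4.3.3 (filterByExpr by group, TMM, quasi-likelihood fit over all 12 libraries with 1 mean per group, Benjamini-Hochberg adjustment over all genes tested). The prior count of log2 CPM was 2. The alternatives were DESeq2 1.42.0, scaling by its size factors, scaling by total counts, other filters, the groups compared alone, leaving out each library, and the library sets as a block, which lowered the common biological coefficient of variation from 0.310 to 0.133. Labels carry no replicate number, so replicates were numbered in accession order, and the sets come from clustering with the members left out. Each set also holds libraries that the labels number in a row (1 to 4, 5 to 8, and 9 to 12), and the labels do not say what the runs are. Changes within a set are log2 ratios of 2 libraries and carry no error. The members and the gene lists were chosen with earlier results of these data known. By rule, the genes named are all members, up to 4 called genes with the largest LPS change from each list, and the 2 genes most correlated with each member. Cd163, Lbp, Hpx, Saa1, Saa2, Crp, Apcs, Fgg, Retnlg, and Nfkbiz were named outside this rule. The symbol Pi3 of 1 list was not found. The comparisons share control libraries. Promoters are from RefSeq (GRCm38.p6), and motifs were searched on both strands.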

Additional observations from a re-analysis of the deposited data

Results flagged for a closer look

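The effect of 3′SL on Saa3 was compared between cells with and without LPS. The interaction was -2.48 on the log2 scale, and it stands here because DESeq2 (adjusted p = 0.0167) and edgeR with the library sets as a block (adjusted p = 0.0177) put the difference itself past the threshold, while edgeR without the block did not (adjusted p = 0.564). With LPS, Saa3 was lower with 3′SL in 3 of 3 sets (-1.87, -1.5, and -1.86), and without LPS it was higher in 2 of 3 sets (1.69, -0.31, and 0.46).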

How the results depend on the processing

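The library sets as a block, with or without total counts, and DESeq2 moved the number of members called, and the cause was not tested. Total counts without the block took Slpi (1.38) out of the calls with LPS against PBS. With LPS against PBS the number called was 4, and it became 7 with the block and 7 with the block without set 3. For 3′SL added to LPS it went from 0 to 2 with the block, 2 with the block and total counts, 3 with the block without set 3, and 1 with DESeq2. For LPS added to 3′SL it went from 3 to 6 with the block, 6 without set 1, 5 without set 2, and 5 without set 3. For the interaction it went from 0 to 1 with the block, 1 with the block and total counts, 2 with the block without set 3, and 1 with DESeq2. Leaving out 1 library gave 2 to 4 members with LPS against PBS and 2 to 3 with LPS + 3′SL against 3′SL.

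The median log2 fold change of the members with LPS against PBS was 1.38 with total counts, 1.56 with the block and total counts, 2.21 with the block without set 1, and 2.32 with at least 10 counts in every library. For LPS + 3′SL against LPS it was -0.10 with total counts, -0.51 with the block and total counts, -0.60 with the block, -0.41, -0.37, and -0.51 with the block without set 1, 2, or 3, and -0.60 with at least 10 counts in every library, which left 5 members. With that filter it was 2.18 for LPS + 3′SL against 3′SL and -0.14 for the interaction, which was -0.48 with the block without set 1. Without 1 library these medians ranged from 1.73 to 2.46 with LPS against PBS, from -0.88 to 0.010 with LPS + 3′SL against LPS, from 0.62 to 2.04 against 3′SL, and from -1.02 to 0.0028 for the interaction.

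Small changes turned sign. With 3′SL against PBS, Hp was 0.11 with the block without set 2, and S100a8 and S100a9 were 0.0076 and 0.13 without set 3. For 3′SL added to LPS, total counts gave 0.019 for S100a8 and 0.073 for Ptx3, and the block gave 0.060 for S100a8 with total counts and 0.036 without set 3. For LPS added to 3′SL, Ptx3 was 0.029 with DESeq2, 0.022 with its size factors, 0.22 with the block, and 0.35 with the block without set 2. In the interaction, Lcn2 was 0.018 with total counts and 0.0021 with the block without set 2, and S100a9 was -0.017 with the block and -0.22 without set 3.

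Without 1 library, changes with 3′SL against PBS ranged from -0.79 to 0.21 for Lcn2, -0.32 to 0.047 for Hp, -0.73 to 0.15 for S100a8, -0.70 to 0.26 for S100a9, -0.13 to 1.16 for Slpi, and -3.08 to 4.30 for Ptx3. For 3′SL added to LPS the ranges were -1.23 to 0.010 for Lcn2, -0.68 to 0.62 for S100a8, -0.88 to 0.58 for S100a9, -0.75 to 0.28 for Slpi, -2.81 to 1.06 for Ptx3, and -0.10 to 0.36 for Cd14. Ptx3 ranged from -2.79 to 4.44 with LPS + 3′SL against 3′SL. In the interaction the ranges were -0.80 to 0.47 for Lcn2, -0.28 to 1.01 for S100a8, -0.54 to 0.92 for S100a9, -1.44 to 0.0028 for Slpi, and -4.36 to 3.02 for Ptx3. The Saa3 rise with LPS (8.17 to 8.79) and its change with LPS + 3′SL against LPS (-1.98 to -1.44) kept their sign and their side of the threshold without any 1 library, as did Hp (2.95 to 3.57, and -1.68 to -0.81).

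With 3 libraries per group and library sets that cross the groups, intervals of the calprotectin genes were wide, and Slpi and Ptx3 rested on at most 113 reads in any library. The labels give no replicate number, and since replicates numbered in accession order fall into the set of the same number, the library set block is also the block by replicate.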
